A study of Mus musculus with 11 samples.

Results

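The elastic fibre and fibulin genes were followed in bulk RNA sequencing of 11 orthotopic pancreatic tumours, 6 from PKN2 knockout (KO) hosts and 5 from wild-type (WT) hosts. The set holds 10 genes, found by their symbols among the 54232 genes of the count table. They are elastin (Eln), the fibrillins Fbn1 and Fbn2, the microfibril-associated proteins Mfap4 and Mfap5, and the fibulins Fbln1, Fbln2, Fbln5, Efemp1 (fibulin-3) and Efemp2 (fibulin-4). All 10 passed the filter on low counts, as did 16536 genes in all.

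The hosts were female C57BL/6 mice aged 24 to 28 weeks that carried 1 copy of RosaCreERT2, a tamoxifen-inducible Cre recombinase expressed in most cell types. KO hosts were PKN2 fl/fl and WT hosts PKN2 +/+, and both groups were given tamoxifen. Each received 1000 TB32048 cells in the pancreas, a mouse pancreatic carcinoma line from a female animal in which Pkn2 is intact. The Cre was thus not limited to fibroblasts by design, and could act in other host cells of the tumour and the surrounding pancreas, while carcinoma cells kept the gene. Each tumour came from 1 animal, and tumours sharing a letter in the 2 groups are different animals. Pkn2 itself averaged 96.6 ± 9.34 CPM (counts scaled to a common effective library total, SD, n = 6) in KO tumours and 96.7 ± 34.6 (n = 5) in WT tumours (log2 difference -0.0023, SE 0.21, edgeR adjusted p = 0.996). Since counts are per gene and carcinoma cells contribute, this level does not check the genotype labels.

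Elastic fibres give tissues their recoil. Fibrillins assemble into microfibrils, on which elastin is deposited and crosslinked by lysyl oxidases, and fibulins act as adaptors that bring elastin, fibrillin and the crosslinking enzymes together. Microfibrils also hold latent TGF-beta, and in pancreatic tumours these proteins are made mainly by fibroblasts and mural cells.

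RefSeq (GRCm38.p6) promoter windows were at hand for 6 of the 10 genes. For 3 fibulins, the 250 bases upstream of 1 start site are shown, in a window chosen because it holds no annotated exon. Each of these genes had at least 1 further window, with 1 to 59 annotated exon bases, which is not shown. Fbln1 and Fbln5 had higher mean levels in KO tumours and Efemp2 a lower one. The windows are read 5′ to 3′ on the coding strand, with GC boxes (GGGCGG or CCGCCC) and SMAD core sequences (CAGAC or GTCTG) in capitals.
Fbln1, chr15:85205699-85205948, plus strand: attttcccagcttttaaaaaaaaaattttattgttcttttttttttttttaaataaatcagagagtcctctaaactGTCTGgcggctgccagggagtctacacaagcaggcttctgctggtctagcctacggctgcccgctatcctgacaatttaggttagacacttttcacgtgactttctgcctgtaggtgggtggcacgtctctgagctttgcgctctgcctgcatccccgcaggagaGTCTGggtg
Fbln5, chr12:101819120-101819369, minus strand: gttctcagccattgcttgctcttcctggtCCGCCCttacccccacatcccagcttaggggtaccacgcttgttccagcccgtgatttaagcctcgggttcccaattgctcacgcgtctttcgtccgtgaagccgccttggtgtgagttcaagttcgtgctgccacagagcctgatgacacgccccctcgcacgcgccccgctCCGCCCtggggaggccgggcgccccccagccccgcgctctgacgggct
Efemp2, chr19:5473696-5473945, plus strand: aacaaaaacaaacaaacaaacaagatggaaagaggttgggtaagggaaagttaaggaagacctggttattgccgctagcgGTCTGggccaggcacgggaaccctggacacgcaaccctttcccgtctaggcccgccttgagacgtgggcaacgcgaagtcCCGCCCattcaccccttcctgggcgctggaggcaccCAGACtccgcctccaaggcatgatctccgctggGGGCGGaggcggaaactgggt
Both kinds of letter run stood in the Efemp2 window shown, SMAD core sequences alone in that of Fbln1 and GC boxes alone in that of Fbln5. This depends on the start site chosen. The further window of Fbln1 held both kinds, that of Fbln5 SMAD core sequences alone, and those of Efemp2 GC boxes alone. Over the 10 windows of the 6 genes, several of which overlap, a GC box occurred in 8 and a SMAD core sequence in 4, and 32.7% and 42.2% of all 32851 windows held them. The TEAD sequence GGAATG (or CATTCC) occurred in 0 of the 10 windows and in 12.6% of all windows. These are letter matches on either strand and not measured binding.

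Libraries held 16294128 to 31121422 counts, and 3 counts corresponded to between 0.0887 and 0.250 CPM. WT tumour B had 6.39% of its counts in ribosomal RNA genes, and WT tumours A, C and D had 1.31%, 1.404% and 0.765%, all above the KO tumours, at 0.308% to 0.739%, while WT tumour E had the lowest share, 0.241%. Across genes, the Spearman rho of exon length with a tumour's deviation from the mean log2 CPM was -0.50, -0.45 and -0.17 in WT tumours A, B and C, 0.27 and 0.37 in D and E, and 0.10 to 0.32 in KO tumours, as a description with no test. WT tumour E had the highest summed level of 11 fibroblast markers among WT tumours, 9598 CPM. The other WT tumours had 2658 to 4545 and KO tumours 4572 to 9743. The markers were Pdgfra, Pdgfrb, Dcn, Lum, Dpt, Thy1, Pdpn, Fap, Col1a1, Col1a2 and Col3a1. Most of the sum came from Col1a1, Col1a2 and Col3a1, at 2743, 2814 and 3128 CPM in WT tumour E. That tumour was the highest WT tumour in every marker but Thy1 and Pdpn. All 11 fibroblast markers were tested, 9 had a log2 fold change above 0, none was at 0 in all tumours, and none passed the test. Carcinoma epithelial markers summed to 2475 to 4909 CPM in the KO group against 3135 to 7951 in the WT group, and mural and smooth muscle markers to 408 to 691 CPM against 295 to 1334. Acta2 and Tagln made up most of the mural sum, and the list was split. Of its 9 markers 4 had a log2 fold change above 0, up to 0.73 for Myh11, and the lowest was Actg2 at -1.24 (edgeR adjusted p = 0.135). WT tumour B had the highest mural sum, with Acta2 at 413 and Tagln at 707 CPM, but the lowest Rgs5 of all tumours, 25.5 CPM. In bulk tissue, fewer cells of a type and less RNA per cell cannot be told apart, and the part of these differences in the results below was not tested beyond the values given.

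Levels per exon length differed between the genes by more than an order of magnitude. By the median RPKM, the CPM divided by exon length in kilobases, over the 11 tumours, Fbln2 stood highest at 76.4, followed by Efemp1 at 49.9, Efemp2 at 35.0, Mfap5 at 29.1, Mfap4 at 17.5, Eln at 13.7, Fbln1 at 11.1, Fbn1 at 9.85, Fbln5 at 2.36 and Fbn2 at 1.24. Neighbours in this order overlapped in their ranges over tumours. Exon length was the union of all annotated exons of a gene, so the order between genes depends in part on the annotation. Mean RPKM of Fbln2 was 95.2 ± 23.4 (SD, n = 6) in KO and 65.6 ± 42.8 (n = 5) in WT tumours. Elastin averaged 26.0 ± 22.9 RPKM in KO tumours, just below Mfap5 by group means, and 6.10 ± 5.51 RPKM in WT tumours, below Fbn1.

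**Figure D1:**
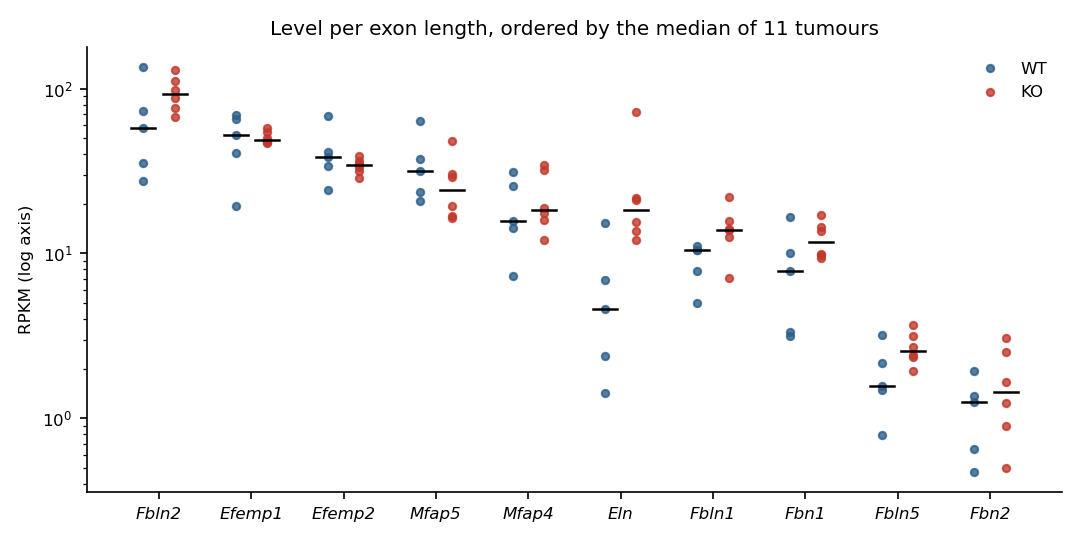
RPKM (log axis) of each gene, with WT tumours in blue and KO tumours in red, 1 point a tumour and a black line at the group median. Fbln2 stands highest with a median of 76.4 RPKM over the 11 tumours and Fbn2 lowest with 1.24.

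The first question was whether loss of host PKN2 goes with a change in this gene set. None of the 10 genes passed an adjusted p of 0.05 in edgeR's quasi-likelihood test, where 3 of 16536 genes (0.0181%) passed as higher and 0 as lower. At an unadjusted p under 0.05, 2 members were higher in KO tumours (Eln and Fbln1) and 0 lower, against 8.57% of all genes higher and 15.5% lower. The log2 fold change was above 0 for 8 of the 10, and for 48% of all genes tested. The median log2 fold change of the 10 was 0.54, and that of all genes -0.03. DESeq2 called 1 member, Eln, as higher and 0 as lower, with 3.21% and 4.85% of genes called by that tool. Without WT tumour E, edgeR called 1 member (Eln) as higher and 0 as lower, against 3.63% and 7.46% of genes, and 5 members (Eln, Fbn1, Fbln1, Fbln2 and Fbln5) were higher at an unadjusted p under 0.05 and 0 lower, against 13% and 19.1%. Without both WT tumours B and E, a choice made after seeing the data, 6 members were higher at an unadjusted p under 0.05, against 9.89%, and 0 were called at the adjusted threshold. A fibroblast score was the mean log2 CPM of the 11 fibroblast markers, which weighs each marker alike and differs from their summed CPM. With this score as covariate, 1 member was higher (Eln) and 1 lower (Mfap5) at an unadjusted p under 0.05, against 6.4% and 10.8%. In every member the CPM ranges of the groups overlapped, while 1.59% of all genes had KO tumours entirely above WT tumours and 2.01% entirely below. Without WT tumour E, Eln alone did not overlap, against 4.4% of genes higher and 4.63% lower. Ranges were compared again for this exclusion only. WT tumour E was the sole WT tumour within the KO range for Eln, so leaving it out fixed the outcome for Eln, which carries no further weight.

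**Figure D2:**
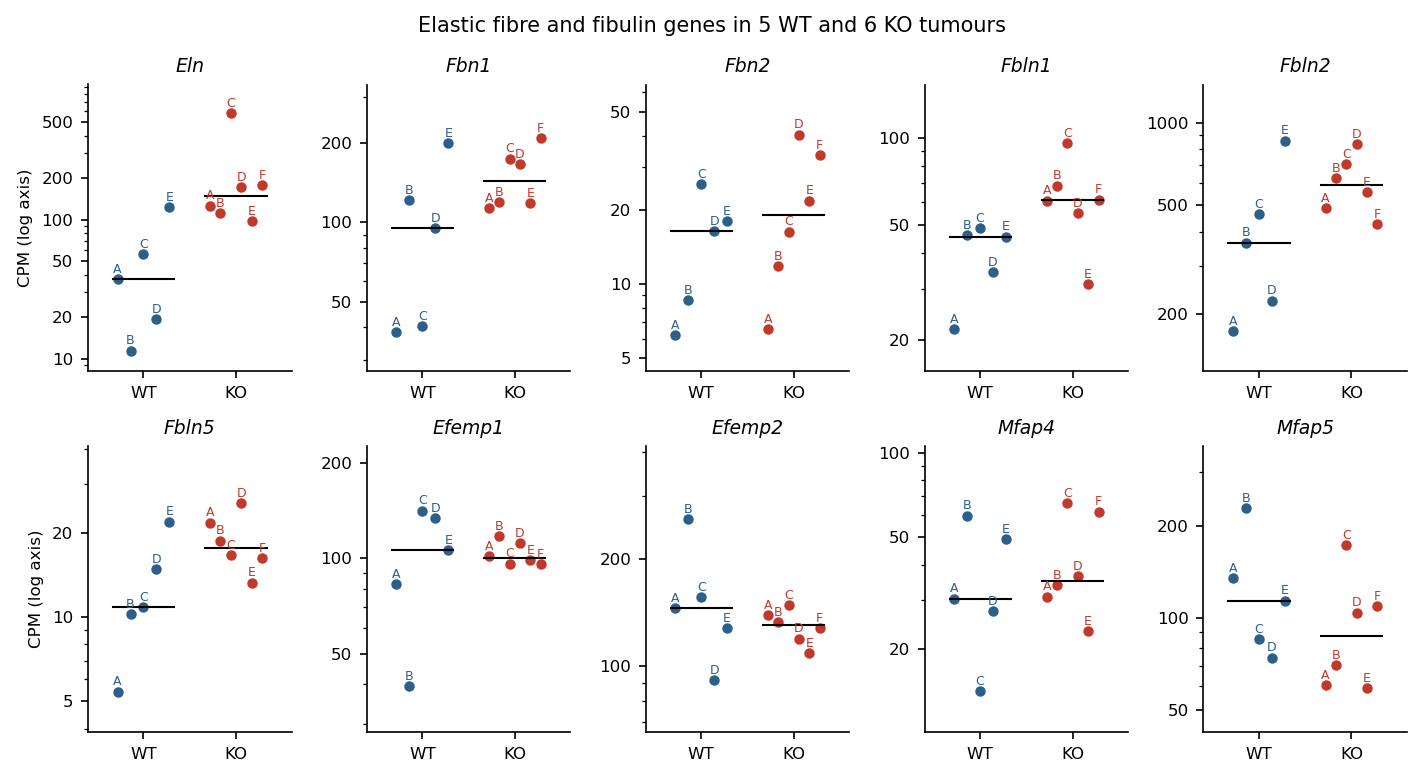
CPM (log axis) of each gene in 5 WT tumours (blue) and 6 KO tumours (red), with tumour letters and a line at the group median. For Eln 4 of 6 KO tumours lie above the highest WT tumour, E, at 123 CPM, and in every panel the groups overlap.

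Elastin, the core protein of the fibre, is encoded at chromosome 5, 134702593 to 134747323, on the minus strand (ENSMUSG00000029675). KO tumours ranged from 97.0 to 584 CPM with a median of 148, and WT tumours A to E had 37.2, 11.4, 56.1, 19.3 and 123 CPM. WT tumours A to D lay below every KO tumour, and WT tumour E lay above KO tumours B and E. WT tumour E had the highest fibroblast marker sum of the WT tumours and the lowest ribosomal RNA share of all tumours. Its B cell, acinar and islet marker sums also stood far above those of the other WT tumours. These traits occur together in this tumour and cannot be told apart. KO tumour C, with 584 CPM, stood far above the next KO tumour, F (176 CPM). The log2 fold change was 2.09 (SE 0.63, 95% interval 0.72 to 3.46) with edgeR adjusted p = 0.103. It was 2.11 with adjusted p = 0.00925 in DESeq2, and 2.76 with edgeR adjusted p = 0.0299 without WT tumour E. Without KO tumour C it was 1.45 with edgeR adjusted p = 0.173. WT tumours A to D, which had the low Eln values, also had ribosomal RNA shares above all KO tumours. With that share as covariate the log2 fold change was 1.72 (edgeR adjusted p = 0.317), and with a gene length offset 1.99 (edgeR adjusted p = 0.0971). The estimate was above 0 in all 20 alternatives, from 1.39 to 2.76, and past the adjusted threshold in 2 of them.

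Elastin was also expressed per 1000 CPM of the summed fibroblast markers, a scale added after the data had been seen. Since Col1a1, Col1a2 and Col3a1 made up most of that sum, this is largely Eln per collagen RNA, not per fibroblast. On this scale KO tumours ranged from 18.4 to 59.9 with a median of 22.3. WT tumours A to E stood at 14.0, 2.52, 12.7, 5.98 and 12.8. The groups did not overlap, as was the case for 0.236% of all genes on this scale in the same direction and 0.375% in the other, and Eln was the sole member of the set for which this held. With the fibroblast score, which is not this sum, as covariate the log2 fold change of Eln was 1.39 (edgeR adjusted p = 0.226). The ratio for Fbn1, which supplies the microfibril scaffold, ran from 17.9 to 25.9 in the KO group and 9.12 to 29.4 in the WT group, and the groups overlapped.

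**Figure D3:**
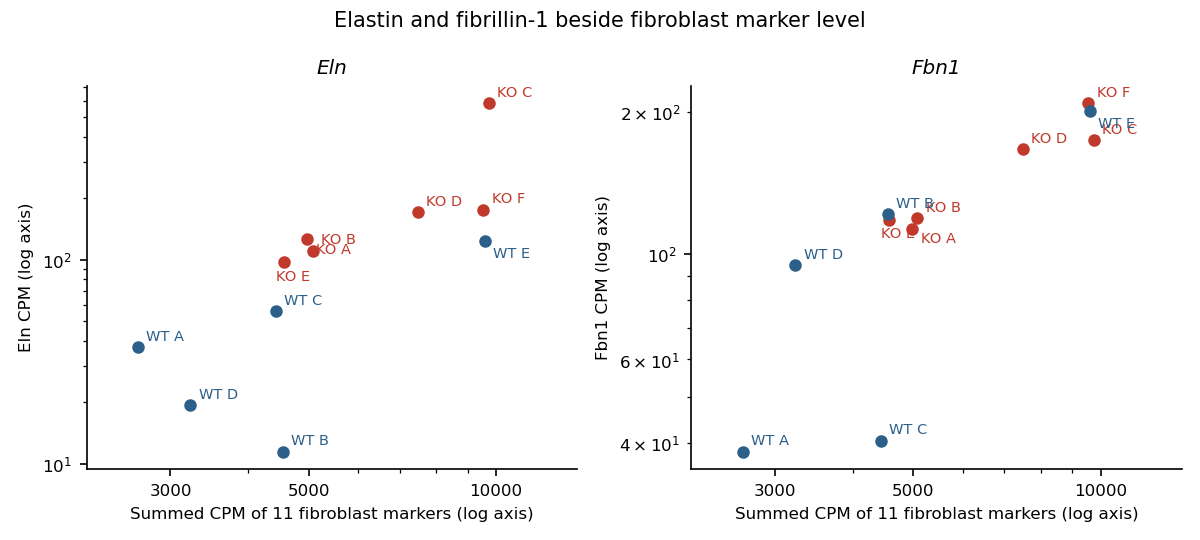
Eln (left) and Fbn1 (right) CPM against the summed CPM of 11 fibroblast markers, both axes log, KO tumours in red and WT tumours in blue. With marker sums of 9547 and 9598 CPM, KO F has 176 and WT E 123 CPM of Eln, and 208 and 200 CPM of Fbn1.

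Among the microfibril genes, Fbn1, the main fibrillin of adult tissue, ranged from 113 to 208 CPM in KO tumours (median 143). WT tumours had 38.3, 121, 40.4, 95.02 and 200 CPM, so that WT tumours A, C and D lay below all KO tumours and B and E among them. Its log2 fold change was 0.60 (SE 0.39, edgeR adjusted p = 0.352). Without WT tumour E it was 1.03 (edgeR adjusted p = 0.0674). With the ribosomal RNA share as covariate the value for Fbn1 was 0.60 and with the gene length offset 0.38. Part of the Fbn1 exons, 20.1%, is shared with Gm9913 on the opposite strand.

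Fbn2, the fibrillin of developing tissue, was the least expressed per length, at 6.55 to 40.4 CPM in KO tumours and 6.21, 8.59, 25.5, 16.5 and 18.0 CPM in WT tumours. The groups lay across each other (log2 difference 0.54, SE 0.46, edgeR adjusted p = 0.488).

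Mfap4 and Mfap5 bind microfibrils and elastin-related proteins and did not share a direction. Mfap4 ranged from 23.1 to 66.2 CPM in KO tumours (median 35.0) and had 30.2, 59.7, 14.1, 27.3 and 49.2 CPM in WT tumours (log2 difference 0.22, SE 0.36, edgeR adjusted p = 0.738). Mfap5 ranged from 59.2 to 173 CPM in KO tumours (median 87.2) and had 135, 229, 85.3, 74.3 and 114 CPM in WT tumours. Its log2 fold change was -0.41 (SE 0.34, edgeR adjusted p = 0.471), and 3 of 6 KO tumours (A, B and E) lay below the lowest WT tumour. With the fibroblast score as covariate the value for Mfap5 was -0.87 (edgeR adjusted p = 0.235), the only member with an unadjusted p under 0.05 in the lower direction in any of the alternatives.

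The fibulins are extracellular glycoproteins that bridge elastin, fibrillin and basement membrane. Fbln1, which binds elastin and fibronectin, ranged from 31.1 to 96.0 CPM in KO tumours (median 61.0). WT tumours had 21.8, 46.0, 48.6, 34.2 and 45.5 CPM. KO tumours A, B, C, D and F stood above every WT tumour, and KO tumour E lay among the WT tumours. Its log2 fold change was 0.66 (SE 0.27, 95% interval 0.08 to 1.25) with edgeR adjusted p = 0.165. The unadjusted p no longer passed 0.05 without KO tumour B, KO tumour C, WT tumour A or WT tumour D, and over the alternatives the edgeR and DESeq2 adjusted p ran from 0.120 to 0.415.

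Fbln2, which is deposited along microfibrils and vessel walls, had 427 to 833 CPM in KO tumours (median 593) and 174, 365, 465, 225 and 860 CPM in WT tumours. WT tumour E was the highest of all 11 and the rest of the WT group reached at most 465. The log2 fold change was 0.54 (SE 0.36, edgeR adjusted p = 0.372), and 0.98 without WT tumour E (edgeR adjusted p = 0.0509). Over the 20 alternatives it ran from 0.34 to 1.08, with edgeR and DESeq2 adjusted p from 0.0509 to 0.693. The WT tumours left without E all had ribosomal RNA shares above every KO tumour, and the part of that share in the value of 0.98 was not tested.

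Fbln5, an adaptor that carries elastin and lysyl oxidase-like proteins to the microfibril, had 13.3 to 25.6 CPM in KO tumours (median 17.7) and 5.42, 10.3, 10.9, 14.8 and 22.0 CPM in WT tumours. WT tumours A, B and C lay below every KO tumour, and WT tumours D and E did not. Its log2 fold change was 0.56 (SE 0.30, edgeR adjusted p = 0.274), and 0.86 (edgeR adjusted p = 0.0646) without WT tumour E. With the ribosomal RNA share as covariate it was 0.43, and 0.45 with the gene length offset.

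Efemp1 and Efemp2 are the remaining fibulins, Efemp2 being required to bring lysyl oxidase to elastin. Efemp1 was even across KO tumours, from 95.7 to 117 CPM, and scattered in WT tumours, at 82.8, 39.5, 141, 134 and 106 CPM. Its log2 fold change was 0.04 (SE 0.26, 95% interval -0.52 to 0.60, edgeR adjusted p = 0.941). Efemp2 ranged from 109 to 148 CPM in KO tumours, and WT tumours had 145, 259, 156, 91.3 and 128 CPM. The log2 fold change was -0.27 (SE 0.22, edgeR adjusted p = 0.470), and WT tumour B held the highest value.

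**Figure D4:**
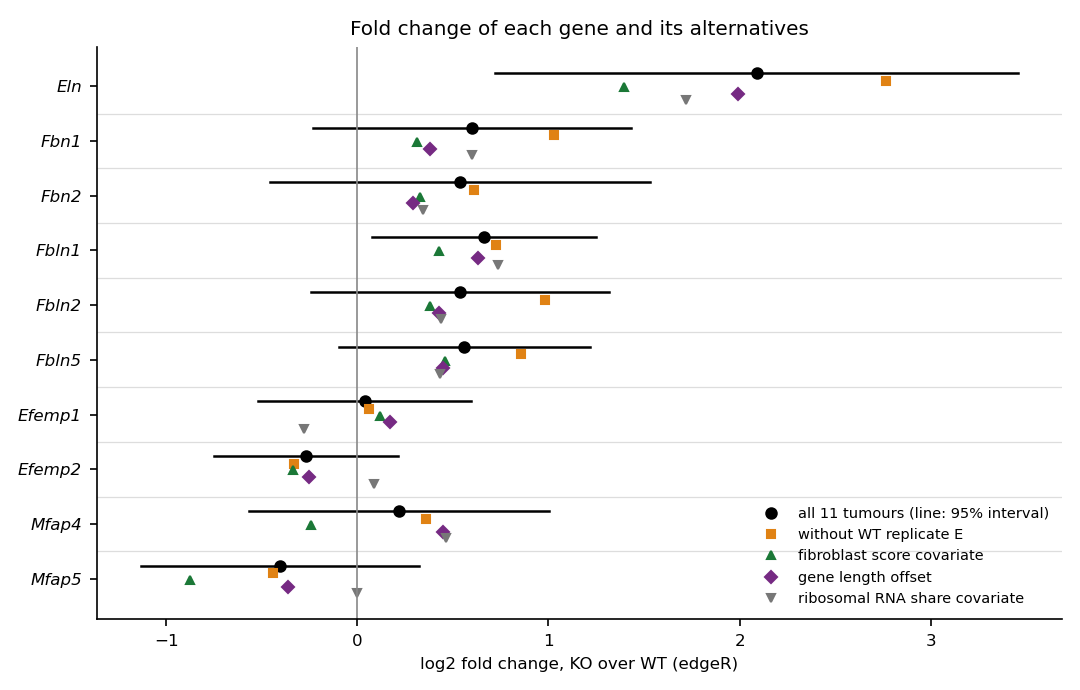
Log2 fold change, KO over WT, of each gene from edgeR with all 11 tumours (black, line for the 95% interval) and under 4 alternatives, without WT E, with a fibroblast score, with a gene length offset and with the ribosomal RNA share. Eln stays above 1 throughout, from 1.39 to 2.76 over all alternatives, and Efemp1, Efemp2 and Mfap4 lie near or across 0. Mfap5 lies at -0.41 with all 11 tumours, at -0.87 with the fibroblast score and at 0.00097 with the ribosomal RNA share.

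Across the 11 tumours the genes did not form 1 block. Of 45 pairs, 31 had a Pearson r above 0 on log2 CPM (median r 0.28), and none passed a permutation test after adjustment over the 45 pairs. Fbln2 and Fbln5 had r = 0.78 (rho 0.81, permutation p = 0.0048, adjusted p = 0.1098), and 0.73 without the 2 most extreme tumours. Eln had r = 0.69 with Fbln2 (permutation p = 0.0188, adjusted p = 0.1098). Efemp1 ran against Efemp2 at r = -0.79, but rho was -0.33 (permutation p = 0.022 and 0.324), and r was -0.70 without the 2 most extreme tumours. After subtracting group means, r was 0.69 for Fbln2 and Fbln5, 0.53 for Eln and Fbln2, and -0.78 for Efemp1 and Efemp2.

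The genes most like the members' mean z score over the 11 tumours were Col3a1 (r = 0.97), Map1a, Ssc5d, Fam20a and Pdgfrb, with r from 0.94 to 0.97. Those most like Eln were Zfp503 (r = 0.98), Iglon5 (0.96) and Prnp (0.96). Col3a1 and Pdgfrb also belong to the fibroblast markers used above, which were not left out of this search. The r values describe likeness over 11 tumours and carry no test.

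The wider elastic fibre system was covered by 45 further genes, of which 43 were tested and 0 passed the adjusted threshold in either direction in edgeR. At an unadjusted p under 0.05, 10 were higher and 1 lower in KO tumours, against 8.57% and 15.5% of all genes. The log2 fold change was above 0 for 35 of 43 and for 48% of all genes, with medians of 0.40 and -0.03. DESeq2 called 4 as higher: Elane, Itga8, Tgfb3 and Emilin2, where 3.21% of all genes were called higher. Without WT tumour E edgeR called 7 as higher, against 3.63% of all genes. By role, values above 0 were found for 8 of 12 microfibril and fibrillin partners, 4 of 6 genes of the elastin interface, 5 of 5 lysyl oxidases, 7 of 9 elastolytic proteases, 3 of 3 TGF-beta ligands and 8 of 8 receptors and elastin-binding proteins, to be read beside the 48% of all genes.

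Among microfibril and fibrillin partners, Ltbp3, which binds latent TGF-beta and is the highest of this role per length, differed by 0.19 (SE 0.23, edgeR adjusted p = 0.641), and Adamts10, a microfibril-linked protease, by -0.54 (SE 0.21, edgeR adjusted p = 0.151). Of the lysyl oxidases, Loxl1, the highest per length, stood at 0.32 (SE 0.27, edgeR adjusted p = 0.488). Loxl3 had 49.9 ± 9.85 CPM in KO and 31.1 ± 12.5 in WT tumours (log2 difference 0.68, SE 0.24, edgeR adjusted p = 0.129).

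Emilin1 and Emilin2 sit at the interface of elastin and microfibrils. Their log2 fold changes were 0.75 (SE 0.28, edgeR adjusted p = 0.137) and 0.96 (SE 0.31, edgeR adjusted p = 0.111). In both genes the highest WT tumour was E, at 97.6 CPM for Emilin1 and 46.5 CPM for Emilin2.

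Elastolytic proteases gave the largest value. Elane, neutrophil elastase, averaged 35.8 ± 27.9 CPM (SD, n = 6) in KO and 1.26 ± 1.63 (n = 5) in WT tumours (log2 difference 4.94, SE 1.08, edgeR adjusted p = 0.0786). KO tumour F, with 2.54 CPM, lay below WT tumour B with 3.75 CPM, and the other 5 KO tumours lay above all WT tumours. The 4 neutrophil markers summed to 228 to 2112 CPM in the KO group against 150 to 907 in the WT group. This sum was lowest among KO tumours in F and highest among WT tumours in B. S100a8 and S100a9, the 2 that were higher at an unadjusted p under 0.05, made up most of it. Csf3r and Cxcr2, the rest of the list, were lowest of all tumours in WT tumour B, at 24.2 and 7.09 CPM. In KO tumour F they had 71.8 and 23.6 CPM, within the range of the other KO tumours. Mmp2 and Mmp9, gelatinases that also degrade elastin, had log2 fold changes of 1.03 (SE 0.39) and 0.95 (SE 0.37), with edgeR adjusted p of 0.142 and 0.150. Ctss, the protease of the list with the highest level per length, differed by 0.36 (SE 0.27). The values below 0 in this role, named after they were seen, were those of Mmp12, macrophage elastase, at -0.56 (SE 0.33, edgeR adjusted p = 0.310) and Ctsl, a lysosomal cathepsin, at -0.27 (SE 0.23, edgeR adjusted p = 0.481).

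Of the TGF-beta ligands, Tgfb3 had 81.2 ± 16.1 CPM in KO and 48.8 ± 9.97 in WT tumours (log2 difference 0.73, SE 0.19, edgeR adjusted p = 0.0888), with 5 of 6 KO tumours above every WT tumour. Tgfb1, the highest per length, differed by 0.20 (SE 0.18). Among receptors and elastin-binding proteins, Itga8, an integrin subunit of mesenchymal cells, was low at 2.04 ± 0.69 CPM in KO and 0.72 ± 0.34 in WT tumours (log2 fold change 1.49, SE 0.41, edgeR adjusted p = 0.0928). Itgb1 and Ctsa had log2 fold changes of 0.52 (SE 0.23) and 0.39 (SE 0.15).

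**Figure D5:**
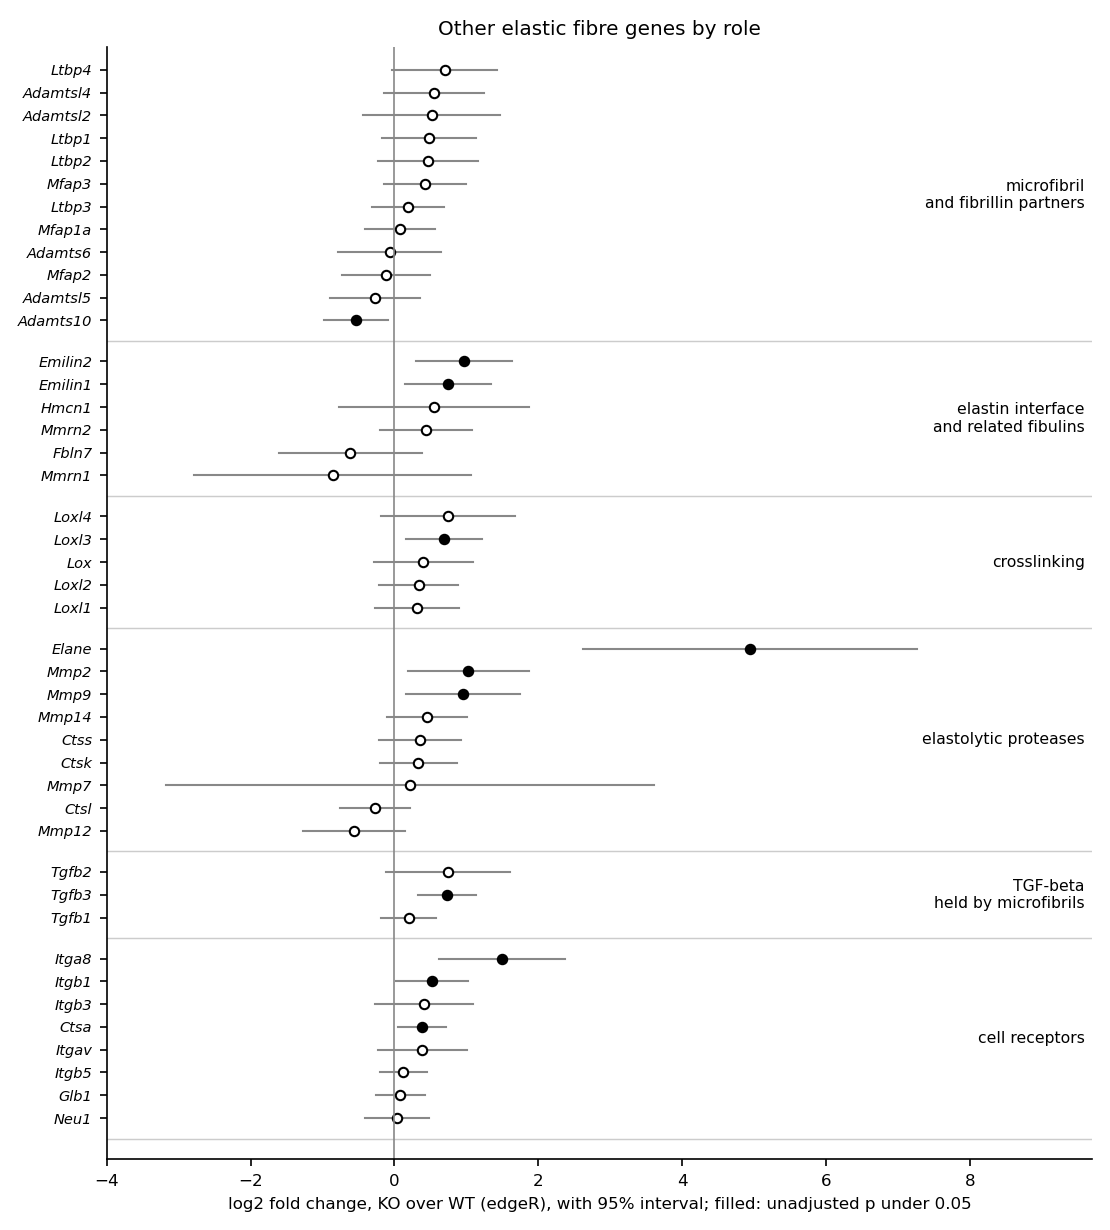
Log2 fold change, KO over WT, of 43 other elastic fibre genes with 95% interval, grouped by role, filled where the unadjusted p is under 0.05. Values lie above 0 for 35 of 43, Elane stands farthest at 4.94, and none passed the adjusted threshold in edgeR.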

How the data were processed

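RNA from a portion of each RNAlater-stored tumour was made into strand-specific libraries (NEB Next Ultra II Directional) and sequenced in paired ends on a NovaSeq. The authors trimmed reads with Trimmomatic, aligned them with HISAT2 (version 2.1.0) to GRCm38 and counted uniquely aligned reads over exons with HTSeq (version 0.11.2). The authors deposited raw counts per gene and a normalised signal, which was each count divided by 1 factor per tumour (0.514 to 1.42). Counts were tested with edgeR (version 4.0.16, R 4.3.3), quasi-likelihood with TMM and filterByExpr, without covariates, and Benjamini-Hochberg adjustment over 16536 genes at a threshold of 0.05. DESeq2 (version 1.42.0) was an alternative, as were other filters, scalings, covariates and leaving out each tumour. Symbols, positions and exon lengths came from GENCODE M21, in which 54165 of 54232 identifiers matched. RPKM used CPM over exon length, taken as the union of all annotated exons of a gene. Pair correlations used log2 CPM with a prior count of 1 and 100000 permutations. All members were named, and of the 45 other genes those with an unadjusted p under 0.05 and the highest per length of each role. Further, the 5 genes most like the members' mean and the 3 most like Eln were named. Members and lists were chosen with earlier results of these data known. The letters did not pair tumours. The p-values measure the spread between the sequenced tumours, and the 3-count floor covers counting error only. Fit code was tested on simulated data.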

Additional observations from a re-analysis of the deposited data

Results flagged for a closer look

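Groups of 5 or 6 tumours were examined for 1 tumour standing far from the rest of its group (Dixon's test) in 74 cases, and 12 were found. For independent, normally distributed values chance alone would give about 1 in 20, or 3.7. The CPM values are skewed and the cases are not independent, so the 12 are not read as an excess. Among the members, Eln in KO tumour C (584 CPM) stood apart, since the other KO tumours had 97.0 to 176. Among the other elastic fibre genes, WT tumour E stood apart for Emilin2 (46.5 CPM) and Mmp2 (417 CPM), and KO tumour F for Ctss (1542 CPM). In WT tumour E the marker sums of fibroblasts (9598 CPM), B cells (27.5 CPM), acinar cells (1515 CPM) and islets (287 CPM) were far above those of the other WT tumours. The neutrophil marker sum of WT tumour B (907 CPM, mostly S100a8 and S100a9) and its ribosomal RNA share (6.39%) stood apart too. In KO tumours, the acinar sum of tumour E (572 CPM) and the islet sum of tumour F (65.8 CPM) were far above the rest. The values without WT tumour E, without KO tumour C, with the fibroblast score or the ribosomal RNA share as covariate and per fibroblast marker sum stand above, and the part of the other marker sums in the gene values was not tested.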

How the results depend on the processing

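Over 20 alternatives, 474 of 498 gene values kept direction and side of the threshold, 15 passed the threshold under an alternative and 9 reversed. The reversals were Efemp1 without WT tumour A (-0.024), without WT tumour B (-0.17), with the ribosomal RNA share as covariate (-0.28) and without WT tumours B and E (-0.20, an alternative chosen after seeing the data), Efemp2 (0.089) and Mfap5 (0.00097) with the ribosomal RNA share, Ltbp3 with the gene length offset (-0.039), and Mfap4 (-0.24) and Loxl1 (-0.067) with the fibroblast score. When 1 tumour was left out, Efemp1 ran from -0.17 to 0.19. The causes were not tested. Members called higher numbered 1 in DESeq2 and 0 to 1 when 1 tumour was left out, and members higher at an unadjusted p under 0.05 numbered 1 to 5 when 1 tumour was left out (6.68% to 13% of all genes), with 1 under the fibroblast score, where 1 was lower, and 6 without WT tumours B and E. Other elastic fibre genes called higher numbered 4 in DESeq2 (3.21% of all genes), 1 with the length offset (0.417%) and 0 to 7 when 1 tumour was left out (0% to 3.63%). At an unadjusted p under 0.05 they numbered 7 to 20 higher and 0 to 4 lower when 1 tumour was left out (all genes 6.68% to 13% and 9.59% to 19.1%), 6 higher and 0 lower with the ribosomal RNA share (5.14% and 6.63%), 19 higher and 0 lower without WT tumours B and E (9.89% and 13.2%), and 2 lower with the length offset (13.8%). Tumour letters did not pair the tumours (same-letter correlations -0.13 to 0.11), and a replicate block gave 3 members higher at an unadjusted p under 0.05 (7.92% of all genes) and Eln at 2.33 (edgeR adjusted p = 0.249). Depth limited none of the members, whose lowest count was 103.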
